A study of Mus musculus with 6 samples.

Results

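Serpinb2, Plau, Plaur, Plat, Tgm2, F13a1, F10, F7 and Thbs1 are 9 mouse genes of plasminogen activation, of transglutaminase cross-linking and of clotting, out of 22180 genes measured. They were chosen by name, with the difference between induced and uninduced cells in these same arrays already known, so their values are given as a description and without a test. The arrays hold RNA of myeloid cells labelled as from fetal liver and kept in GM-CSF at 1 ng/ml, which supports granulocyte and macrophage growth. There were 3 uninduced samples (A, B and C) without doxycycline and 3 induced samples (A, B and C) with doxycycline at 1000 ng/ml over 72 hours, which the labels equate with expression of the transcription factor PU.1. The sources used here give no strain, age, construct or driving promoter. No sample had the drug without PU.1 expression, so the drug and PU.1 cannot be told apart. The labels do not say that the samples were separate cultures, so the spread between them may be technical.

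Plasminogen is cut to the active protease plasmin by urokinase, the product of Plau, and by tissue plasminogen activator, the product of Plat. Urokinase works on the cell surface when bound to its receptor, encoded by Plaur, and plasminogen activator inhibitor 2, encoded by Serpinb2, blocks both activators; activated macrophages are known for making large amounts of it. Tgm2 and the A subunit of factor XIII, encoded by F13a1, are transglutaminases, enzymes that join proteins by bonds between glutamine and lysine, and factor XIII joins fibrin in this way. F7 and F10 encode clotting protease precursors that depend on vitamin K and are made mainly by the liver, and Thbs1 encodes thrombospondin 1, a secreted glycoprotein of platelets and macrophages.

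The stretch of 250 bases before an annotated start was read for the members that had an entry among RefSeq promoters of GRCm38.p6, which were 5 of 9 (Serpinb2, Plaur, F13a1, F10 and F7, with 7 windows). Plau, Plat, Tgm2 and Thbs1 had no entry. The 4 windows below are shown because they hold the letters of an AP-1 site (TGANTCA) or of the core of a PU.1 box (GAGGAA), PU.1 being the factor the labels say was induced. Capitals mark these letters and those of a GC box (GGGCGG), on either strand, and each window ends at the base before the annotated start.
Serpinb2, chr1:107511173-107511422, plus strand: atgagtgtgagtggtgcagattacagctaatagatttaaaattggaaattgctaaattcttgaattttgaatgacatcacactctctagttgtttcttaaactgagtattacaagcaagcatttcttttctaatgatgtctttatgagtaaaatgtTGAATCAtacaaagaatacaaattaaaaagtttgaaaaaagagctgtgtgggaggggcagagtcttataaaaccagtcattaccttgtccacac
Plaur, chr7:24462233-24462482, plus strand: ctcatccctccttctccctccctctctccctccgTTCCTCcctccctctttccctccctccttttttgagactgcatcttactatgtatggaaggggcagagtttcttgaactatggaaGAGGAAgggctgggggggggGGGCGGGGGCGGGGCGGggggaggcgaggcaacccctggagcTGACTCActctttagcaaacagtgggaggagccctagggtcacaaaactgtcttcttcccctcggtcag
F13a1, chr13:37050245-37050494, minus strand: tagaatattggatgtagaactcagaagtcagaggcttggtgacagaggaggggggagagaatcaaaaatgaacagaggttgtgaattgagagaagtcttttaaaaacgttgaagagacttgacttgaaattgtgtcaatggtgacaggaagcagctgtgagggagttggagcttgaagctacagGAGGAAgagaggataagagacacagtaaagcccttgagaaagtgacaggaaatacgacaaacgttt
F7, chr8:13025784-13026033, plus strand: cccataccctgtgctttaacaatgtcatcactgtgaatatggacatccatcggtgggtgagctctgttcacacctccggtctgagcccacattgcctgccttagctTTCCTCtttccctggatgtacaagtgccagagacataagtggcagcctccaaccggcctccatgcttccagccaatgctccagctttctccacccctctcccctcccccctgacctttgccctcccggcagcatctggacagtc

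The AP-1 letters stood in Serpinb2 at bases -94 to -88 and in Plaur at -69 to -63, counted from the start. They were found in 2 of the 5 members with a window and in 7.82% of 27025 genes with such windows. The second Serpinb2 window, which overlaps the one shown, holds the same AP-1 letters. GAGGAA stood in Plaur on both strands (-216 to -211 and -131 to -126), in F13a1 at -66 to -61 and in F7 on the minus strand at -144 to -139, which is 3 of the 5 members and 25.9% of all genes. The second F13a1 window held none of the motifs. Plaur also held 3 GC boxes, of which the last pair shares 1 base, against 35.4% of all genes with at least 1. The core of a hypoxia response element (ACGTG) stood in F10 alone among the 5, and in 18.5% of all genes. A match is a run of letters and was not tested for binding.

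Values are the deposited log2 expression values, and differences are induced minus uninduced. A gene is called above background on an array where its value lies over the 95th percentile of 1390 olfactory and vomeronasal receptor genes, a limit of 7.05 to 7.39 on the uninduced arrays and induced A, 7.99 on induced B and 7.86 on induced C. Induced B and C also had a narrower spread than the others, with interquartile ranges of 1.88 and 1.93 against 2.29 to 2.76. Induced A resembled uninduced A (r = 0.991 over all transcript clusters) more than it did the other induced arrays. As the values stand, the 2218 genes of highest mean level had a median difference of -0.32, and after cyclic loess, which removes differences that follow level, 0.01. Values after cyclic loess are therefore given beside the members' results, and values without induced A beside Serpinb2, Plau and Tgm2. The cell type label was checked on 8 myeloid genes: Lyz2, Csf2ra, Csf2rb, Cebpa, Spi1 and Itgam were above background on all 6 arrays, Mpo on the 3 induced ones, and Ptprc, which encodes CD45, was below it on all 6. Spi1, the gene of PU.1, read 8.80, 8.65 and 8.84 on the uninduced arrays and 9.13, 9.04 and 9.05 on the induced ones, higher on each but not past the threshold (0.31, SE 0.12, limma adjusted p = 0.152; 0.67 after cyclic loess, limma adjusted p = 0.0915). Whether its probes read the induced copy is not given in the labels.

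**Figure D1:**
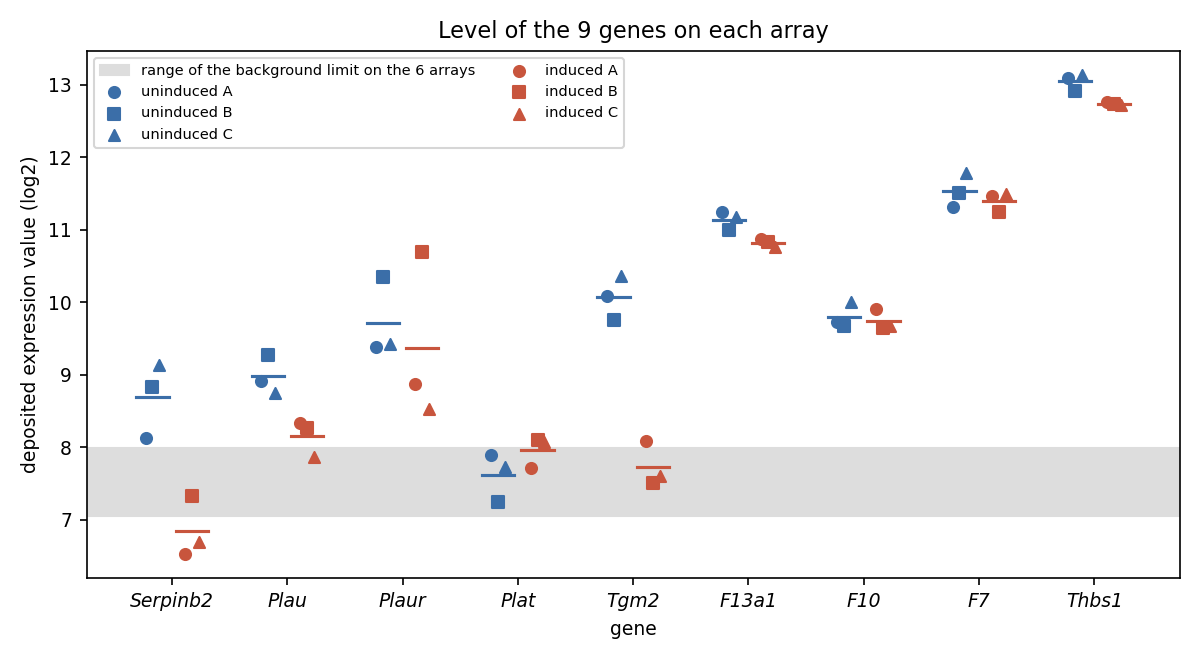
Deposited log2 value (vertical axis) of each of the 9 genes (horizontal axis) on the 3 uninduced and 3 induced arrays, with bars at the group means and a grey band over the range of the background limit, 7.05 to 7.99. Serpinb2 and Tgm2 lie clearly lower on the induced arrays, Plaur is high on both B arrays, and F7 and F10 overlap between groups.

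Serpinb2 and Tgm2 were the members that differed most between the groups. Each induced value lay below every uninduced one for both. At an adjusted p under 0.05, limma put 1.05% of all 22180 genes lower and 0.374% higher. After cyclic loess it put 0.532% lower and 0.374% higher, and without induced A 15.9% and 9.01%. Since the members were chosen on this comparison, their own calls are not given. The groups did not overlap for 5 of 9 members, all lower in induced cells (Serpinb2, Plau, Tgm2, F13a1 and Thbs1), as for 15.4% of all genes; 0 members and 16.0% of all genes were higher in this way. After cyclic loess Serpinb2, Plau and Tgm2 still did not overlap, 3 of 9, against 11.3% of all genes. The median difference of the members was -0.32, against 0.06 over all genes, and -0.02 against 0.00 after cyclic loess.

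The inhibitor gene Serpinb2 (chromosome 1, 107500892 to 107525600, GRCm38) read 8.13, 8.83 and 9.13 on uninduced A, B and C and 6.53, 7.33 and 6.70 on induced A, B and C. It was above background on all 3 uninduced arrays and on 0 of 3 induced ones, so the induced level is only a bound. The difference was -1.84 (SE 0.26), and measured from the background limit it was at least 1.94-fold lower. Within the induced group B was the highest and lay 1.36 below the uninduced mean, while A lay at -2.17 and C at -2.00 from it. The difference was -1.69 after cyclic loess and -1.68 without induced A.

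The activator gene Plau (chromosome 14, 20836662 to 20843388) read 8.91, 9.27 and 8.75 on the uninduced arrays and 8.34, 8.27 and 7.86 on the induced ones. All induced values lay below all uninduced ones, by a difference of -0.82 (SE 0.18), or 1.77-fold lower. Induced C was at the background limit of that array and the other 5 were above theirs. The difference shrank to -0.50 after cyclic loess and was -0.91 without induced A. The other activator gene, Plat (chromosome 8, 22757722 to 22782848), was the member that leaned higher, at 7.89, 7.24 and 7.73 on the uninduced arrays and 7.71, 8.10 and 8.08 on the induced ones. Its groups overlapped through induced A, and all 6 values lay close above their arrays' limits. The difference was 0.34 (SE 0.19), 0.51 after cyclic loess and 0.15 without uninduced B, the lowest array.

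The receptor gene Plaur (chromosome 7, 24460937 to 24475970) did not follow the groups. It read 9.38, 10.35 and 9.43 on the uninduced arrays and 8.87, 10.70 and 8.53 on the induced ones. The B array was the highest in each group, and induced B was the highest of all 6. The difference of the means was -0.36 (SE 0.48), smaller than its error. Measured from the uninduced mean, induced A lay at -0.86, induced C at -1.20 and induced B at 0.98. The difference was -1.03 without induced B, -0.04 without uninduced B, and -0.71 with both B arrays left out, a setting chosen after seeing these values. After cyclic loess it was 0.01. No label says what the B arrays share.

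**Figure D2:**
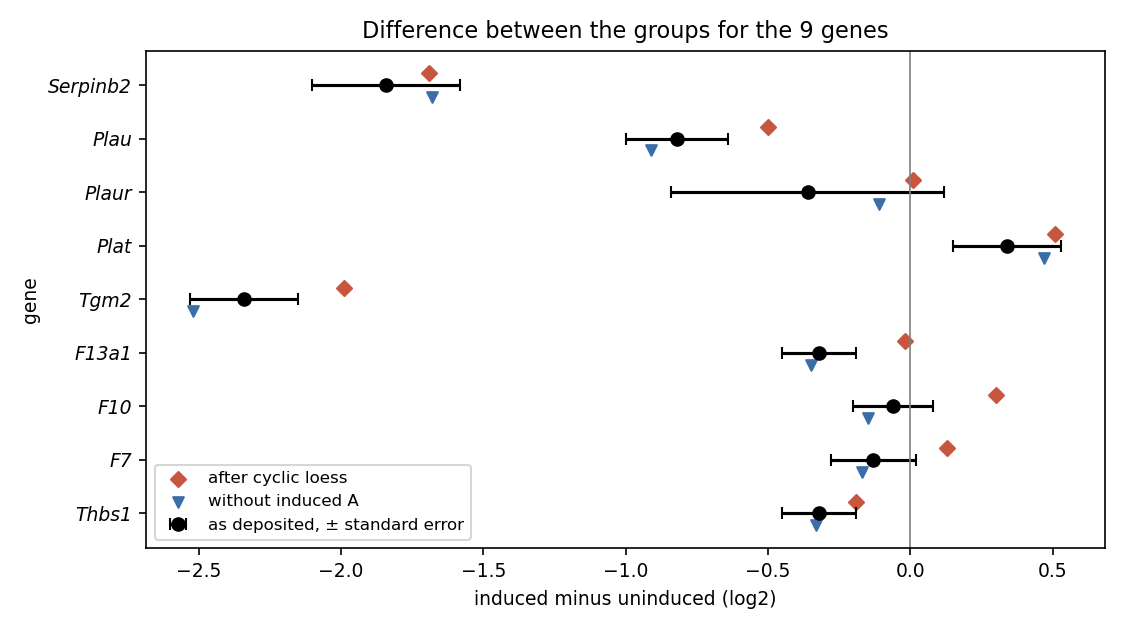
Difference of each gene, induced minus uninduced on the log2 scale (horizontal axis), as deposited with its standard error (black, n = 3 per group), after cyclic loess (red) and without induced A (blue). Serpinb2 and Tgm2 stay below -1.6 in all 3 settings, and F13a1, F10 and F7 move to near or above 0 after cyclic loess.

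Among the transglutaminases, Tgm2 (chromosome 2, 158116405 to 158146392) read 10.09, 9.76 and 10.36 on the uninduced arrays and 8.09, 7.51 and 7.60 on the induced ones. This was the largest difference of the 9 genes, -2.34 (SE 0.19), or 5.06-fold lower as the values stand. Induced A had the highest induced value and was above background, while B and C lay under their limits, so the induced level is in part a bound. The difference was -1.99 after cyclic loess and -2.52 without induced A. F13a1 (chromosome 13, 36867178 to 37050244) read 11.25, 11.002 and 11.18 on the uninduced arrays and 10.87, 10.83 and 10.76 on the induced ones. The groups lay apart, by -0.32 (SE 0.13) or 1.25-fold, but after cyclic loess they overlapped and the difference was -0.02. Tgm2 was thus under the background limit on 2 of 3 induced arrays, while F13a1 was above it on all 6.

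The clotting protease genes F7 and F10 are neighbours on chromosome 8, with 1498 bases between them (F7 13025506 to 13035809, F10 13037308 to 13056676). F7 read 11.32, 11.51 and 11.78 on the uninduced arrays and 11.46, 11.24 and 11.50 on the induced ones. F10 read 9.73, 9.68 and 9.997 on the uninduced arrays and 9.91, 9.64 and 9.67 on the induced ones. Both were above background on all 6 arrays and their groups overlapped. The differences were -0.13 (SE 0.15) for F7 and -0.06 (SE 0.14) for F10, within their errors, and 0.13 and 0.30 after cyclic loess, on the other side of 0. Of 8 hepatocyte genes only Apoa1 rose above background on any array, Alb and Afp on none, and the list's mean log2 level was 6.46 to 6.75 on the uninduced arrays and 6.74 to 6.95 on the induced ones.

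Thbs1 (chromosome 2, 118111876 to 118127133) read 13.10, 12.92 and 13.14 on the uninduced arrays and 12.76, 12.73 and 12.72 on the induced ones. The induced values lay within 0.04 of each other and below all uninduced ones, by -0.32 (SE 0.13), or 1.25-fold. After cyclic loess the groups overlapped and the difference was -0.19. Of 5 measured platelet and megakaryocyte genes, among them Pf4 and Itga2b, 0 were above background on any array, and of 8 fibroblast genes 0 were.

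The percentile of a gene's value among all 22180 genes of the same array does not depend on the scale of the array. It does depend on the probes, so it is used here only to follow 1 gene between arrays. Tgm2 stood at percentiles 94.7, 90.4 and 96.1 on the uninduced arrays and 72.7, 64.1 and 65.8 on the induced ones. Serpinb2 moved from 73.1, 79.1 and 86.6 to 39.9, 59.5 and 40.8, and Plau from 84.3, 85.1 and 81.8 to 76.5, 79.6 and 71.6. For these 3 genes no induced array reached the lowest uninduced percentile. F13a1 stood at 97.7 to 98.6 on the uninduced arrays and at 97.8 to 98.4 on the induced ones, and F7 at 98.7 to 99.3 and at 98.9 to 99.2, so the ranks of both overlapped between the groups. Thbs1 stood at 99.89 to 99.93 on the uninduced arrays and at 99.85 to 99.86 on the induced ones, near the top of the scale, with each induced rank below each uninduced one. F10 stood at 89.6 to 94.1 and at 93.8 to 94.3, and Plat at 58.1 to 69.4 and at 66.7 to 76.5. Plaur was at 94.97 on uninduced B and 98.1 on induced B, and at 83.5 to 89.7 on the other 4.

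**Figure D3:**
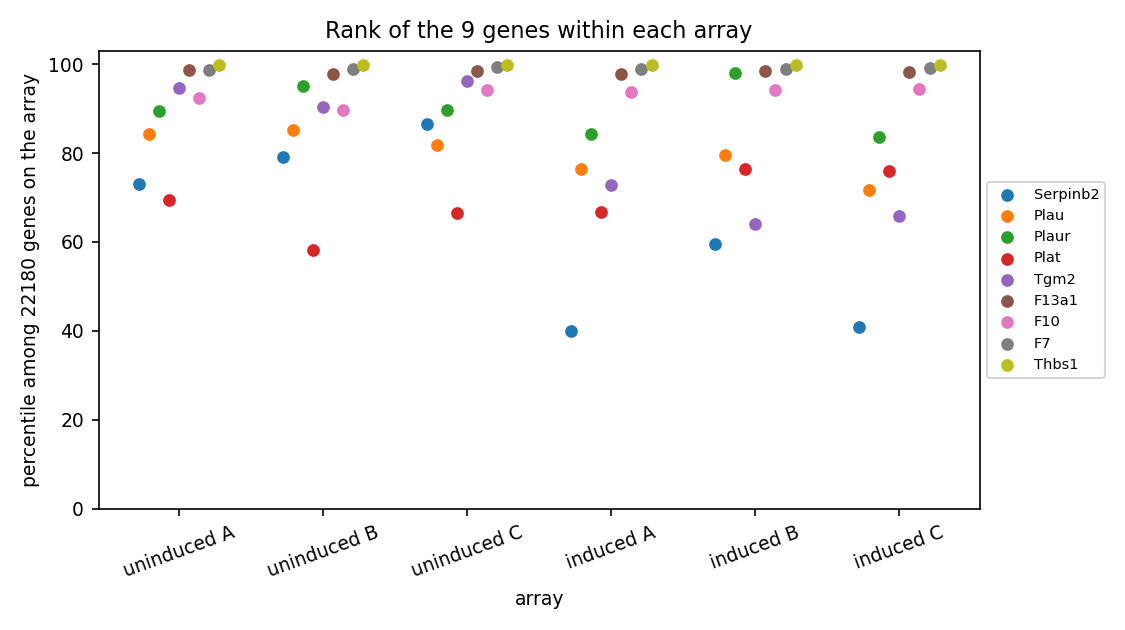
Percentile of each of the 9 genes among 22180 genes (vertical axis) on each array (horizontal axis). Tgm2 and Serpinb2 stand lower on all 3 induced arrays, at 64.1 to 72.7 and 39.9 to 59.5, while Thbs1, F7 and F13a1 stay above 97 on all 6.

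**Figure D4:**
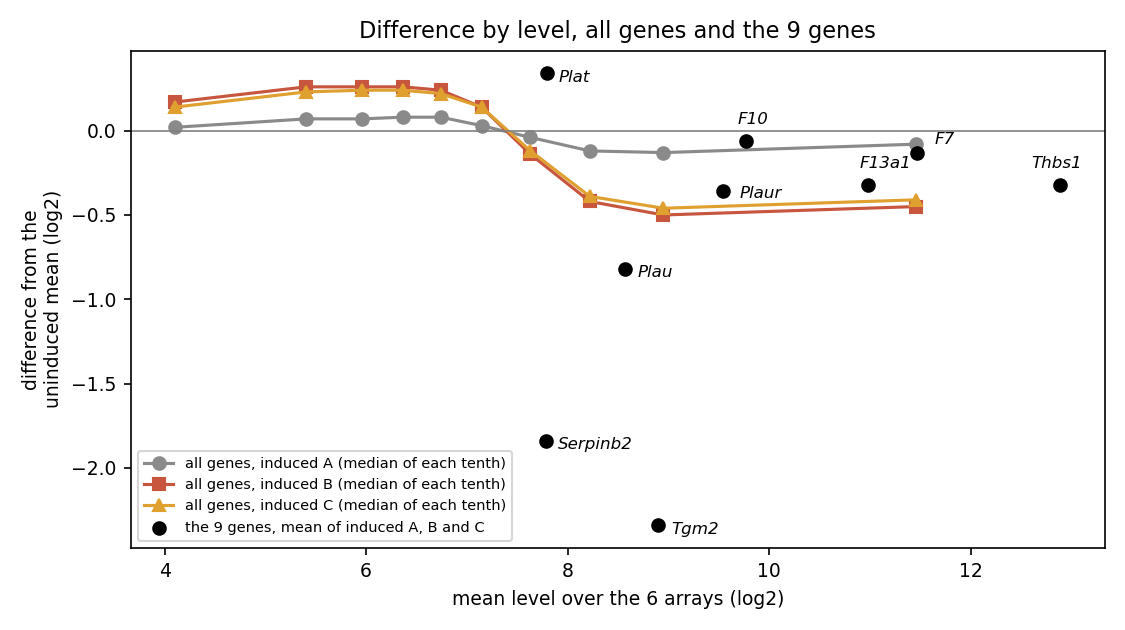
Difference from the uninduced mean (vertical axis, log2) against mean level over 6 arrays (horizontal axis, log2). Lines join the medians of 10 bins of 2218 genes each, ordered by level, for induced A, B and C, and black points are the mean differences of the 9 genes. The 3 bins of highest level lie between -0.50 and -0.39 on induced B and C and between -0.13 and -0.08 on induced A. Plau (-0.82) and Tgm2 (-2.34), whose levels fall in these bins, lie lower. Serpinb2 (-1.84) falls in bin 7, counted from the lowest level, with medians of -0.14 on induced B and -0.12 on induced C.

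The genes whose values were most like those of each member over the 6 arrays were ranked by Pearson's r, as a description. Every r includes the difference between the 2 groups. With 6 arrays and 22180 genes to pick from, high r values arise easily, also for genes below background (0.999 for Agmo with Plat). Shared regulation was not tested. For Plaur they were Trem1 (r = 0.994), a receptor that amplifies inflammation in myeloid cells, Tnfaip6 (0.992) and Fbxw19 (0.991). Trem1 read 9.65, 10.02 and 9.64 on the uninduced arrays and 9.49, 10.19 and 9.24 on the induced ones. It was highest on the B array of each group, which follows from its choice by likeness to Plaur. For Plau they were Clec4e, Lims1 and Atp6v1g1 (0.995 to 0.998). Clec4e, a receptor for mycobacterial glycolipid, read 8.63, 9.23 and 8.21 on the uninduced arrays and 7.49, 7.41 and 6.76 on the induced ones. For Tgm2 they were Acoxl, Map1lc3a and Gstm2 (0.996 to 0.997), of which Gstm2, a glutathione transferase, differed by -1.40. For Serpinb2 they were Plekhh2, Khnyn and Slc25a37 (0.984 to 0.991), for F13a1 Abcd2, Nabp1 and Itgb2 (0.979 to 0.995), and for Thbs1 Itgb2, Pdxp and Nos2 (0.992 to 0.996). The leukocyte integrin subunit gene Itgb2 was thus among the 3 nearest to both F13a1 and Thbs1. The ranking used the deposited values, where Itgb2 differed by -0.36 and F13a1 and Thbs1 by -0.32 each. The median of the 2218 genes of highest level was also -0.32, and likeness after cyclic loess was not computed. For F7 they were Usp40, Atxn7l1 and Arhgap45 (0.985 to 0.994). The 3 nearest to Plat (Agmo, Myl1 and Dnmt3aos) and the 3 nearest to F10 (Tat, Ms4a2 and Vmn2r61) were below the background limit of each of the 6 arrays. So were Plekhh2, Acoxl and Fbxw19, named above for Serpinb2, Tgm2 and Plaur. Tnfaip6 was above the limit on 1 of 6 arrays, and Khnyn and Usp40 on 2 of 6 each.

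Around the members, 102 other genes of 7 lists were tested by limma with adjustment over all 22180 genes. Of these, 3 fell (Serpinb8, Tfpi2 and Cd36) and 0 rose, against 1.05% and 0.374% of all genes. At an unadjusted p under 0.05 limma gave 19 lower and 8 higher, where 16.9% of all genes were lower and 11.4% higher. After cyclic loess the same 3 fell and 0 rose. Without induced A 13 fell and 6 rose, where 15.9% and 9.01% of all genes did. Their median difference was 0.11, against 0.06 over all genes, and 43 of the 102 were above background on at least 1 array.

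Of 15 other clade B serpins, the family of Serpinb2, Serpinb8 was the member that fell. Serpinb8, an inhibitor of furin-like proteases, read 8.51, 8.62 and 8.74 on the uninduced arrays and 7.62, 7.59 and 7.41 on the induced ones. The groups lay far apart relative to their spread, by -1.08 (SE 0.13, limma adjusted p = 0.00283) or 2.12-fold as the values stand, and by -0.85 after cyclic loess (limma adjusted p = 0.0159). Serpinb8 was above background on 1 of 3 induced arrays, A, so its induced level is in part a bound. It lies 64325 bases beyond Serpinb2 on chromosome 1, and Serpinb10, which lies between them, is not analysed here. The other 14 had differences from -0.46 to 0.44.

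Of 11 anticoagulant and thrombin receptor genes 1 fell, Tfpi2, which encodes a secreted inhibitor of plasmin and of clotting proteases. It read 8.87, 9.39 and 8.75 on the uninduced arrays and 8.12, 7.85 and 7.61 on the induced ones, a difference of -1.14 (SE 0.19, limma adjusted p = 0.0179) or 2.21-fold lower as the values stand, with 1 of 3 induced arrays, A, above background. The call ended without uninduced A, uninduced B, induced B or induced C (-1.21, -0.95, -1.14 and -1.02; limma adjusted p 0.0525 to 0.0978), and under median centring (-1.26, limma adjusted p = 0.0505). Of 20 other thrombospondins and partners of thrombospondin or transglutaminase 1 fell, Cd36, a receptor of thrombospondin 1. It read 6.61, 7.17 and 6.94 on the uninduced arrays and 5.67, 6.14 and 5.51 on the induced ones (limma adjusted p = 0.0189), above background on uninduced B alone, so no fold is given. The call of Cd36 ended without uninduced B, uninduced C or induced C (limma adjusted p 0.0587 to 0.102).

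No gene passed the test in the lists of plasminogen, its inhibitors, receptors and clearance (15 measured), other transglutaminase family genes (8), other coagulation genes (21) and matrix metalloproteinases with their inhibitors (12). At an unadjusted p under 0.05 limma gave 0 higher and 3 lower in the first, 0 and 0 in the second, 1 and 4 in the third, and 4 and 1 in the fourth, to be read against the same 16.9% lower and 11.4% higher over all genes. The genes named from the plasminogen list are S100a10 and Anxa2, whose products form a complex that binds plasminogen at the cell surface. Anxa2 read 11.02, 11.02 and 10.95 on the uninduced arrays and 10.43, 10.60 and 10.01 on the induced ones (-0.65, SE 0.16, limma adjusted p = 0.0797). The difference of Anxa2 was -0.33 after cyclic loess, and without induced A it passed the threshold (-0.69, limma adjusted p = 0.0236). S100a10 read 10.97, 11.57 and 10.94 on the uninduced arrays and 10.65, 10.86 and 9.15 on the induced ones (-0.94, SE 0.37, limma adjusted p = 0.151). The difference of S100a10 was -0.40 without induced C and -0.62 after cyclic loess. For both, each induced value lay below all uninduced ones, as for 15.4% of all genes, with induced C the lowest. After cyclic loess the groups overlapped for both. The epidermal transglutaminase gene Tgm1 was at -0.37 (SE 0.23; -0.03 after cyclic loess) and Tgm5 at 0.26 (SE 0.14), neither past the threshold. Lman1, a cargo receptor for clotting factors V and VIII, was at -0.35 (SE 0.17) and Vkorc1l1, of the vitamin K reductase family, at -0.51 (SE 0.21). After cyclic loess they were at -0.03 and -0.15, and without induced A both passed the threshold (-0.54, limma adjusted p = 0.0284, and -0.77, limma adjusted p = 0.00919). Mmp2, a gelatinase, was at -0.29 (SE 0.18; -0.15 after cyclic loess) and Hpn, a membrane serine protease, at 0.20 (SE 0.14; 0.31 after cyclic loess).

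**Figure D5:**
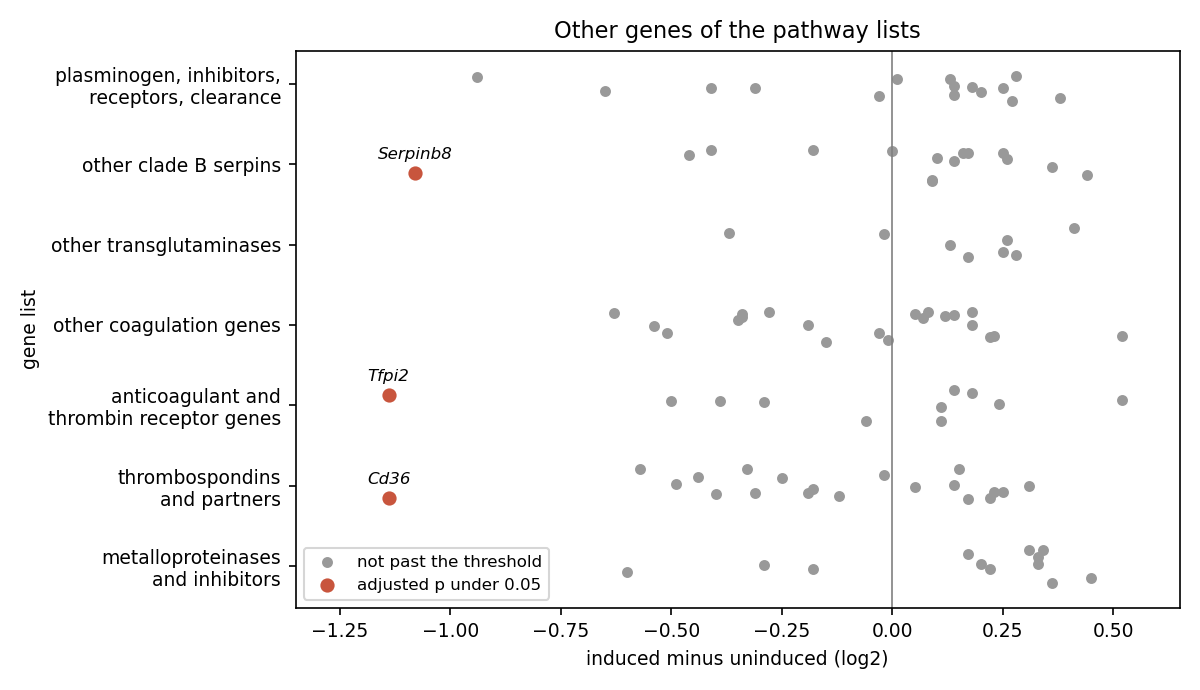
Difference of the 102 other genes of the 7 lists, induced minus uninduced on the log2 scale (horizontal axis), 1 point per gene with vertical scatter for legibility; red points have a limma adjusted p under 0.05. Serpinb8, Tfpi2 and Cd36 lie between -1.14 and -1.08 and all other points between -0.94 and 0.52.

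Part of the macrophage list moved with the groups in the other direction from Serpinb2 and Tgm2. Of 8 listed, Adgre1, Mrc1, Mpeg1 and Cd68 rose (limma adjusted p under 0.05, 4 of 8) and 0 fell, against 0.374% and 1.05% of all genes. Above background were 5 of the 8 on at least 1 array and 2 on all 6. The list's mean log2 level was 6.77 to 6.997 on the uninduced arrays and 7.92 to 8.16 on the induced ones. Csf1r, the receptor of the macrophage growth factor, was below background on all 6 arrays. The rise was not particular to the macrophage list. Of the 8 myeloid genes named above, 3 rose and 0 fell by the same test, against the same shares of all genes. Of the 8, 6 lay above 0 and 2 below, with a median difference of 0.45, and 0.78 after cyclic loess. Of 8 mast cell and basophil genes Kit was above background on all 6 arrays and Mcpt8 on 5. Mcpt8, a basophil protease gene, read 8.56, 8.82 and 8.65 on the uninduced arrays and 8.16, 7.24 and 7.89 on the induced ones. It was lower on each (-0.91, limma adjusted p = 0.0666), with induced B under the limit of 7.99. After cyclic loess the lowest difference in the mast cell and basophil list was -0.64, with 0 of 8 genes past the threshold. Without induced A Mcpt8 was at -1.11 (limma adjusted p = 0.00811), in a setting that called 15.9% of all genes lower. The list as a whole did not move this way: 6 of its 8 genes lay above 0 and 2 below, with a median difference of 0.03. Of 8 endothelial genes Pecam1, which myeloid cells also make, was above background on all 6 arrays, and Kdr on the 3 uninduced ones alone. Kdr read 7.64, 7.64 and 7.70 on the uninduced arrays and 7.34, 7.53 and 7.47 on the induced ones. Its difference was -0.21 (SE 0.12, limma adjusted p = 0.25) and -0.13 after cyclic loess, while the background limit was higher on induced B and C. Of 5 erythroid genes 0 were above background on any array. In bulk RNA fewer cells of a type and less RNA per cell cannot be told apart, and the part of a shift in cell makeup in the lower Serpinb2 and Tgm2 was not tested.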

How the data were processed

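Each of 3 uninduced and 3 induced samples, grouped by title, had RNA on 1 Affymetrix Mouse Gene 2.0 ST array. The authors deposited log2 values for 41345 transcript clusters. The submitters' processing notes name Partek and mm10; for background correction, normalization and summarization the method is not given in the sources used here. The log2 scale was read from the values (2.86 to 14.03). The number of arrays limits the precision.

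Transcript clusters were named from the array's GEO annotation, of unknown age: 23521 had 1 symbol, 1814 several and 16010 none listed. The cluster with the highest mean over 6 arrays stood for a gene, which left 22180 genes; each member had 1 cluster. Of 109 listed pathway genes 102 were found, and of 64 markers 58. The comparison used limma's lmFit and eBayes (version 3.58.1, under R 4.3.3), two-sided, without covariate or filter, with Benjamini-Hochberg adjustment over 22180 genes at 0.05. Fits with simulated data (22180 genes, 200 changed) were checked. The rule for named genes took all members, pathway genes past the threshold (up to 4 a list, else the 2 of highest mean), markers above background and the 3 genes nearest to each member. Where a group lay under the background limit on all 3 arrays, its fold was taken from the mean limit. Alternatives were cyclic loess, median centring, quantile normalization, a block for the letter, leaving out genes below the 25th percentile of mean level, a variance trend with robust moderation, the mean of clusters, and leaving out arrays. The members, lists and tests were chosen with earlier results of these data known. Protein sequences were not used here.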

Additional observations from a re-analysis of the deposited data

How the results depend on the processing

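Serpinb2 and Tgm2 were lower under every alternative run, at -2.13 to -1.63 and -2.52 to -1.99. F10 and F7 changed side under quantile normalization (0.28 and 0.06) and cyclic loess (0.30 and 0.13), and F10 also without uninduced C (0.03). Plaur changed side under cyclic loess (0.01) and without induced C (0.06). Serpinb8 was called under every alternative run, which was not so for Tfpi2 and Cd36. Over all genes, 83 were higher and 232 lower; the numbers were 174 and 425 with the letter as a replicate block, 51 higher under median centring, 108 lower under quantile normalization, 118 lower under cyclic loess, and 49 and 77 with both B arrays left out. Leaving out 1 array gave 45 to 1998 higher and 47 to 3535 lower genes, the highest of each without induced A, and among the pathway genes 0 to 6 higher and 1 to 13 lower. A variance trend with robust moderation called 1 pathway gene higher, Fgg, which was named after its value was seen. The letters are not known to pair the arrays: deviations from the group means correlated at -0.312 for A, -0.278 for B and 0.416 for C. The replicate block added S100a10 among the pathway genes. The cause of these differences was not tested. Genes in the range of background have bounds only.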
